A study of Arabidopsis thaliana with 91 samples.

Results

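Anti-Myc chromatin immunoprecipitation followed by sequencing (ChIP-seq) was compared between Arabidopsis plants that carried Myc-tagged ROS1 together with SDG2-ZF (Myc-ROS1xSDG2-ZF, n = 2 libraries) and plants that carried Myc-ROS1 alone (Myc-ROS1, n = 2). The comparison asks where Myc-ROS1 peaks differ between plants with and without an H3K4 methyltransferase tethered to chromatin. These were 4 of 91 samples of the series, and each group had 1 peak list from SET4 (replicate 1) and 1 from SET7 (replicate 2) of the labels. Segments are the stretches, 100 bp or longer, that both lists of a group cover with peaks. A Myc-ROS1xSDG2-ZF segment was gained if neither Myc-ROS1 list had a peak that touched it by 1 bp, a Myc-ROS1 segment was lost in the mirror case, and the others were shared. Of 4593 Myc-ROS1xSDG2-ZF segments, 304 were gained (6.62%), and of 4966 Myc-ROS1 segments, 179 were lost (3.6%). The remaining 4289 and 4787 segments were shared.

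All plants were of the Col-0 ecotype and leaves were taken at 4 to 5 weeks. SDG2-ZF is the catalytic part of SDG2 fused to the zinc finger ZF108 and a FLAG tag and driven by the UBQ10 promoter, which is active in most tissues. According to the paper, Myc-ROS1 was introduced by transformation into an SDG2-ZF line. The Myc groups may therefore also differ in the insertion or level of Myc-ROS1, which cannot be told apart from the presence of SDG2-ZF here. The H3K4me3 lists used to describe the segments came from other plants, SDG2-ZF without Myc-ROS1 (n = 3) and Col-0 (n = 2), both of SET1. Nothing in the labels ties the replicates to separate plants or cultures, and p-values here cover the variation among these libraries alone.

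ROS1 is a DNA glycosylase that cuts out 5-methylcytosine and thereby starts active DNA demethylation, and in leaves it keeps methylation away from genes near transposons. SDG2 places 3 methyl groups on lysine 4 of histone H3 (H3K4me3), a mark of the starts of active genes that is rarely found together with dense CG methylation. ZF108 was designed for the promoter of FWA, a homeobox gene that is silenced by CG methylation in Col-0 leaves, and it also binds many other sites.

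The sequences below are the DNA under the FWA peak and under leading gained and lost segments. Segments whose printed window touches an annotated untranslated region (UTR) were passed over, so the printed sequences are not the strict top of each class. The sequences read 5′ to 3′ on the plus strand of the RefSeq assembly TAIR10.1, whose nuclear chromosomes are those of TAIR10, and capitals mark CG dinucleotides, the sites of CG methylation. The FWA stretch is the part of the SET4 Myc-ROS1xSDG2-ZF peak that lies before the annotated gene start, and the others are the central 120 bases of a segment.
FWA, chr4:13038223-13038359: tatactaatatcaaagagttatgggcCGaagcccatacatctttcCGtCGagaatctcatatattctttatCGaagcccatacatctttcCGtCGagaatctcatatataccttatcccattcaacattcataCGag
gained, before AT3G26800, chr3:9862021-9862140: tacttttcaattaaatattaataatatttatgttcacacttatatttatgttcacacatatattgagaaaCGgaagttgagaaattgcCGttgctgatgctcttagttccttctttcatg
gained, before CHX24, chr5:14646735-14646854: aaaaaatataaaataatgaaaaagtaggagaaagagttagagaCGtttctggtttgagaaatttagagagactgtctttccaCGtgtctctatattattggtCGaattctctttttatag
gained over an H3K4me3 gain, intron of NSP1, chr3:5566673-5566792: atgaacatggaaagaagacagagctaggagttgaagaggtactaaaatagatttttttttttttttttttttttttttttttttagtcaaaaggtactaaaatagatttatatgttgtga
gained over an H3K4me3 gain, before ATECP31, chr3:7973082-7973201: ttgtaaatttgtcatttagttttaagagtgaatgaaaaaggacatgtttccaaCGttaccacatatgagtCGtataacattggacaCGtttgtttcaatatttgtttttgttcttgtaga
lost, before AT4G27740, chr4:13838405-13838524: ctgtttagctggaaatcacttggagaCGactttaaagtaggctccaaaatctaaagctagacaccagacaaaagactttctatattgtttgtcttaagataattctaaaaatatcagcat
lost, between genes, chr1:29511280-29511399: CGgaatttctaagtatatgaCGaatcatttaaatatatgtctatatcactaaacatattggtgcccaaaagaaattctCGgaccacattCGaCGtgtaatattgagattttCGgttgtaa
lost, before AT1G01100, chr1:51424-51543: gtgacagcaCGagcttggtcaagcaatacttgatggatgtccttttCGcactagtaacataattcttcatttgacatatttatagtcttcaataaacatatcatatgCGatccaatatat

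The FWA stretch holds the same 38 bases in a row at 13038249 to 13038286 and again at 13038294 to 13038331, 45 bases further on, with 3 CG in each copy and 7 in the whole stretch. Of the gained windows, those of AT3G26800, CHX24, NSP1 and ATECP31 hold 2, 3, 0 and 3 CG, and of the lost windows, those of AT4G27740, the intergenic stretch and AT1G01100 hold 1, 6 and 3. The windows of both classes thus overlap in their number of CG. Over the central 120 bases of every segment the mean was 4.67 CG at gained, 4.17 at lost and 5.12 at shared segments, against 2.78 over all such windows of the nuclear genome. At least 1 CG lay in 94.7% of gained, 89.9% of lost, 93.4% of shared and 86.6% of all windows. Across whole segments CG made up 3.59 per 100 bp of gained and 3.44 of lost DNA, with 4.22 in shared segments and 2.34 in the genome, and the GC content was 40.9%, 38.6%, 41.3% and 36.0%. Gained segments were thus rich in CG relative to the genome, as were lost and shared ones. The printed 120-base windows are poorer in GC than their classes, with 23.3 to 34.2%.

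The lists differed in size within each group and in opposite directions between sets. Myc-ROS1xSDG2-ZF had 14212 nuclear peaks in SET4 and 5580 in SET7, which covered 7.26% and 2.66% of the genome, against 9724 and 7924 peaks in Myc-ROS1, which covered 4.23% and 3.78%. Peak lists carry no read numbers. The fold is the enrichment that the peak caller wrote, whether over an input or over the ChIP library's own background is not stated, and its median was 2.45 and 2.40 in Myc-ROS1xSDG2-ZF and 2.52 and 2.41 in Myc-ROS1. The list from the library labelled untagged Col-0 (SET6) had 808 peaks and met none of the 304 gained (Wilson 95% upper limit 1.25%) or 179 lost segments (2.101%). That library goes partly against its label, since it had a peak of 53.2-fold over the UBQ10 promoter and one of 3.74-fold inside SDG2 (chr4:8658586-8658809). It was therefore used only as an alternative filter and for the shares given here and at H3K4me3 segments, which carry the same doubt. In the H3K4me3 lists the peak at the start was present for 5 of 6 leaf genes in every library, among them RBCS1A and RCA of carbon fixation, while the seed storage gene CRA1, the pollen gene VGD1 and the root gene PYK10 had none. The seed gene OLEO1 had one in all 5 lists, and the seed gene 2S3 in 3 of 3 SDG2-ZF and 0 of 2 Col-0 lists.

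Within SET4, 6176 of 14212 Myc-ROS1xSDG2-ZF peaks met no Myc-ROS1 peak (43.5%) and 1083 of 9724 Myc-ROS1 peaks were lost (11.1%). Within SET7 the order was the other way round, with 910 of 5580 gained (16.3%) and 3389 of 7924 lost (42.8%). In each set the larger list had the more peaks of its own. Cut to the 5580 strongest peaks in each Myc list, the replicated count was 345 gains and 225 losses. That cut left the SET7 list of Myc-ROS1xSDG2-ZF whole and removed weaker peaks from the other Myc lists, and the part of list size was not tested. Leaving out a library loosens the rule, so higher counts follow largely from the rule itself. Its group then needs no replication, and fewer lists can exclude segments of the other group. Without replicate 1 or 2 of Myc-ROS1xSDG2-ZF there were 549 and 5040 gains and 1546 and 296 losses. Without replicate 1 or 2 of Myc-ROS1 there were 659 and 933 gains and 1412 and 942 losses. When a segment had to be gained or lost within each set separately, the replicate block, 238 gains and 131 losses were left. The Myc lists of one set had 44.3% (SET4) and 45.0% (SET7) of the bases covered by either list in common, against 22.1% between the Myc-ROS1xSDG2-ZF lists and 29.6% between the Myc-ROS1 lists.

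**Figure D1:**
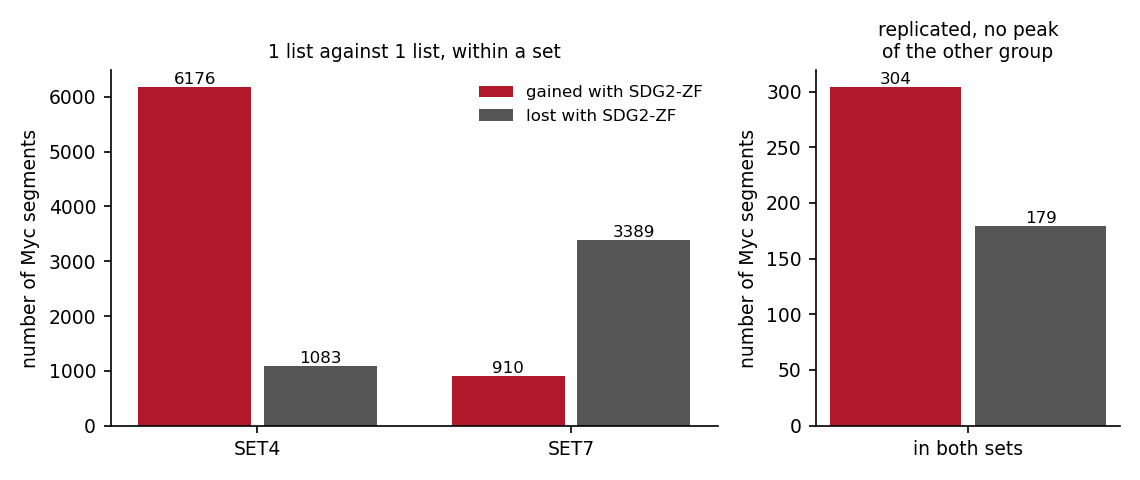
Number of gained (red) and lost (grey) Myc segments, Myc-ROS1xSDG2-ZF against Myc-ROS1, within SET4 and SET7 (left, 1 list per group) and for segments present in both lists of a group (right, separate axis). Gains exceed losses in SET4 (6176 and 1083), losses exceed gains in SET7 (3389 and 910), and the replicated counts are 304 and 179.

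Gained segments were short and of low to middling fold. Their median length was 253 bp, against 381 bp for shared segments, and lost segments had 214 bp. In the SET4 list of Myc-ROS1xSDG2-ZF the fold over gained segments ran from 1.61 to 8.48 with a median of 2.45, which was the 51.7th percentile of that list, and in the SET7 list from 1.70 to 7.14 with a median of 2.31, the 40th percentile. Shared segments stood at the 76.0th and 56.8th percentile of the same lists. Lost segments stood at the 37.8th percentile of the SET4 list and the 43.7th of the SET7 list of Myc-ROS1, with medians of 2.37 and 2.32. A Myc-ROS1 peak lay within 500 bp of 85 gained segments (28.0%), with a median distance of 1468 bp, and a Myc-ROS1xSDG2-ZF peak within 500 bp of 71 lost ones (39.7%), with a median of 788 bp.

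Close to the limits of the rule, 20 gained segments were shorter than 150 bp and 13 stretches of 50 to 99 bp would have been gained under a lower minimum. A Myc-ROS1 peak ended within 50 bp of 11 gained segments, and 26 segments were kept out by an overlap of at most 50 bp. For lost segments the same 4 numbers were 24, 28, 12 and 28.

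Gained segments lay mainly at genes. Of the 304, 141 (46.4%, Wilson 95% interval 40.9 to 52.0) had their midpoint within 500 bp of a coding gene start, 110 (36.2%, 31.0 to 41.7) elsewhere in a coding gene and 39 (12.8%, 9.53 to 17.1) between genes. Of the 179 lost segments, 84 (46.9%, 39.8 to 54.2) lay at starts, 51 (28.5%, 22.4 to 35.5) in the rest of coding genes and 39 (21.8%, 16.4 to 28.4) between genes. Shared segments had 56.5% at starts, 30.4% in the rest of coding genes and 9.70% between genes, while points set every 1 kb along the genome gave 21.5%, 46.7% and 18.5%. Gene-poor windows, the 100 kb windows with the lowest 20% of gene content, held 6.91% of gained, 5.59% of lost and 7.11% of shared segments and made up 20.1% of the genome. These intervals, like those of all shares here, cover counting error only.

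Gained and lost segments differed in H3K4me3 by size, though no test here could pass 0.05. A peak of the mark lay over 47.4%, 56.2% and 52.6% of gained segments in the 3 SDG2-ZF libraries, against 28.3% and 31.6% in the 2 Col-0 libraries. Every SDG2-ZF library stood above both Col-0 libraries, and the intervals of single libraries ran from 41.8 to 61.7% in SDG2-ZF and from 23.5 to 37.0% in Col-0. At lost segments the shares were 52.0%, 51.4% and 51.4% in SDG2-ZF and 50.3% and 50.8% in Col-0. At shared segments they were 63.4%, 64.5% and 65.3% in SDG2-ZF and 57.8% and 59.3% in Col-0. In Col-0, then, fewer gained than lost or shared segments had an H3K4me3 peak, and in SDG2-ZF gained and lost segments had it about as often.

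The means at gained segments were 52.1% ± 4.47 in SDG2-ZF (SD, n = 3) and 29.9% ± 2.33 in Col-0 (n = 2), which is 22.1 points apart (p = 0.1 by exact two-sided permutation of the libraries, the lowest that 3 against 2 can give, and 0.26 after Benjamini-Hochberg adjustment over 13 tests). At lost segments the difference was 1.02 points and at shared segments 5.84 points, each with the same exact p and adjusted p, so none of these passes 0.05 and their sizes are the information. The difference at gained segments exceeded that at lost segments by 21.1 points and that at shared segments by 16.3 points, again with exact p = 0.1 and adjusted p = 0.26, and each of the 3 SDG2-ZF libraries stood above both Col-0 libraries in both differences. These comparisons share the same 5 H3K4me3 libraries.

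How the segments were called changed the size. For segments called within SET4 the SDG2-ZF minus Col-0 difference was 6.36 points at gained and 2.42 at lost segments, and within SET7 it was 15.0 and 3.35 points. Gained exceeded lost segments by 3.94 points in SET4 and 11.6 in SET7, whereas gained minus shared was -0.77 points in SET4 and 10.8 in SET7. Without Myc-ROS1xSDG2-ZF replicate 2 the difference at gained segments was 7.22 points and that of gained minus shared 0.66, without replicate 1 they were 14.4 and 9.40, and without Myc-ROS1 replicate 2 they were 8.74 and 2.27. Gained minus lost was 6.71, 9.74 and 5.98 points in the same order. With equal numbers of peaks in every list of an assay the difference was 9.18 points at gained, 0.074 at lost and 1.49 at shared segments. At a minimum of 300 bp it was 38.2 points at gained segments. The SDG2-ZF lists of H3K4me3 covered 10.96 to 12.1% of the genome and the Col-0 lists 9.96 to 10.8%.

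**Figure D2:**
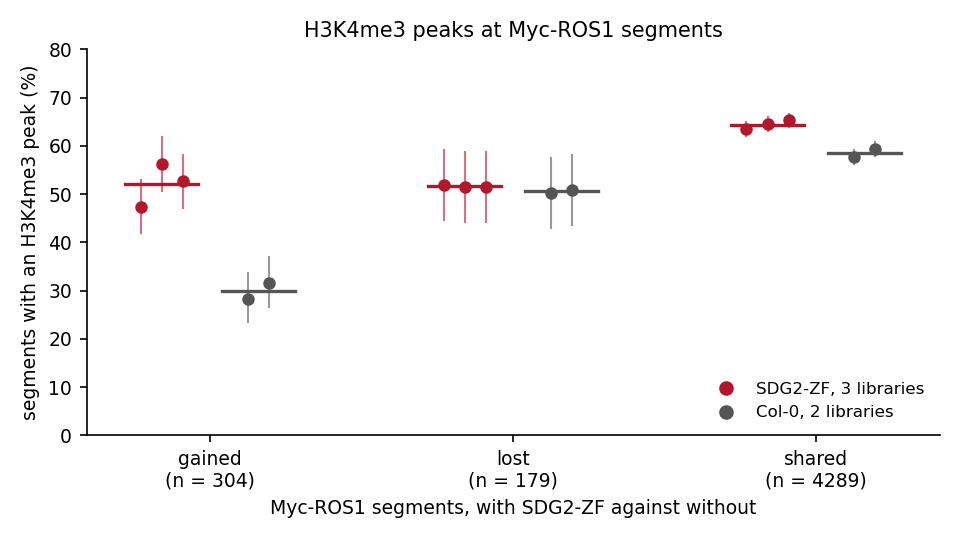
Percent of Myc-ROS1 segments with an H3K4me3 peak in each SET1 library, for gained (304), lost (179) and shared (4289) segments. Red points are SDG2-ZF libraries (n = 3), grey points Col-0 libraries (n = 2), thin vertical lines Wilson 95% intervals and horizontal lines group means. At gained segments the SDG2-ZF points lie between 47.4 and 56.2% and the Col-0 points at 28.3 and 31.6%, and at lost segments all 5 lie between 50.3 and 52.0%.

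The difference was centred on the segments. At the midpoint of gained segments H3K4me3 peaks covered 41.7% in SDG2-ZF and 23.8% in Col-0 on average. At 500 bp to the left it was 23.8% and 16.9%, and at 1 kb to the left 14.5% and 10.5%. At the midpoint of lost segments the cover was 46.7% in SDG2-ZF and 45.5% in Col-0. At shared segments it was 50.4% and 45.8%.

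**Figure D3:**
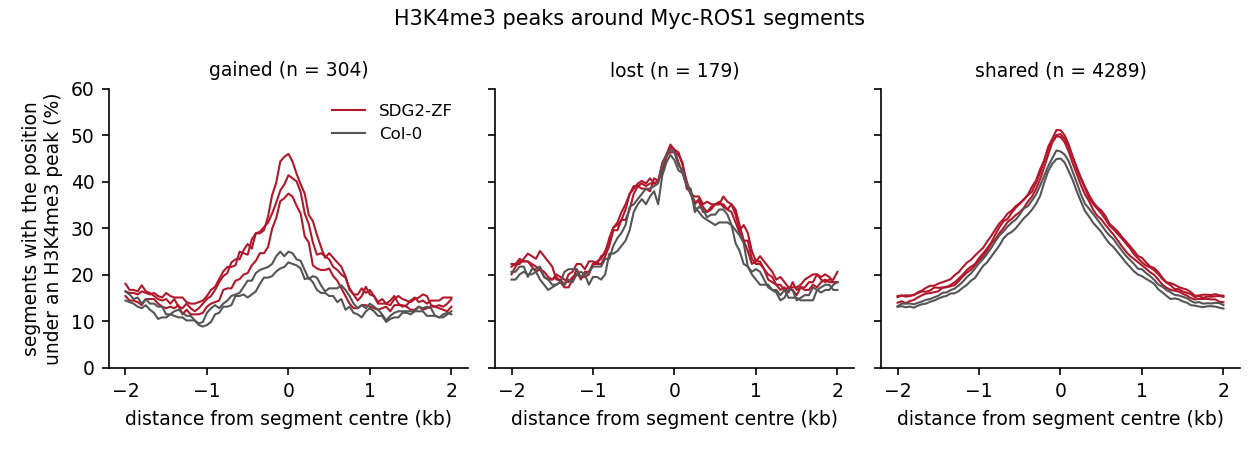
Percent of gained, lost and shared Myc-ROS1 segments whose position at the given distance from the segment centre (kb) lies under an H3K4me3 peak, 1 line per SET1 library (red SDG2-ZF, grey Col-0). At the centre of gained segments the mean is 41.7% in SDG2-ZF and 23.8% in Col-0. At the centre of lost segments it is 46.7% in SDG2-ZF and 45.5% in Col-0.

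Segment by segment, 47 of the 304 gained segments (15.5%, 11.8 to 19.95) had an H3K4me3 peak in 3 of 3 SDG2-ZF and 0 of 2 Col-0 lists, against 3 of 179 lost (1.68%) and 163 of 4289 shared ones (3.80%). All 5 lists had the mark at 79 gained (26.0%), 84 lost (46.9%) and 2339 shared segments (54.5%). None had it at 122 gained (40.1%), 79 lost (44.1%) and 1345 shared segments (31.4%). A peak in at least 1 SDG2-ZF list and no Col-0 list was found at 84 gained segments (27.6%), and the reverse at 2, while lost segments gave 7 and 3. The most common single state of gained segments was thus no H3K4me3 peak in any list.

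Taken from the H3K4me3 side, SDG2-ZF gained 1398 of 16876 replicated H3K4me3 segments over Col-0 (8.28%) and lost 151 of 15154 (0.996%), with the same rule. A gained Myc segment met 47 of the 1398 and a lost one met 3, and neither met any of the 151. Of all shared Myc segments, 3.61% overlapped an H3K4me3-gained segment, against 15.5% of gained and 1.68% of lost ones. The sets gave unlike values. Within SET4, 3.48% of gained, 1.20% of lost and 4.50% of shared Myc segments overlapped an H3K4me3 gain, and within SET7 it was 10.11%, 1.21% and 2.74%. Gained stood above lost segments in both sets, and above shared segments in SET7 alone.

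Myc peaks at the H3K4me3-gained segments were found in 41.6% (SET4) and 15.5% (SET7) of cases in Myc-ROS1xSDG2-ZF, against 23.2% and 11.7% in Myc-ROS1. Within each set the share was higher with SDG2-ZF, by 18.3 points in SET4 and 3.86 points in SET7, but the groups overlapped across sets (exact two-sided permutation p = 0.667, adjusted p = 0.867; 2 against 2 libraries allow 0.33 at the lowest). The mean difference of 11.1 points was -1.93 and 24.1 without replicate 1 or 2 of Myc-ROS1xSDG2-ZF and 16.9 and 5.29 without replicate 1 or 2 of Myc-ROS1. At the 15478 H3K4me3 segments shared with Col-0 the values were 36.0% and 18.3% in Myc-ROS1xSDG2-ZF and 26.1% and 26.9% in Myc-ROS1. There the sign turned between sets, 9.90 points in SET4 and -8.57 in SET7, and the mean difference of 0.66 points had an exact p of 1.

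Set against these shared segments of the same list, H3K4me3-gained segments stood higher with SDG2-ZF than without in both sets, by 8.41 points in SET4 and 12.4 in SET7. The mean of these differences was 10.4 points (p = 0.33 by exact two-sided permutation, which is the floor for 2 against 2; adjusted p = 0.619), and it was 6.22 and 14.6 points without replicate 1 or 2 of Myc-ROS1xSDG2-ZF and 16.6 and 4.21 without replicate 1 or 2 of Myc-ROS1. At the 151 H3K4me3-lost segments Myc peaks were listed in 14.6% and 5.96% of cases in Myc-ROS1xSDG2-ZF, against 6.62% and 9.93% in Myc-ROS1 (exact p = 1). Those segments held a peak of the library labelled untagged Col-0 in 24.5% of cases, against 0.0715% at H3K4me3-gained and 0.168% at shared H3K4me3 segments. Lists of another Myc-tagged protein had one at 26.5% (Myc-JMJ14), 39.7% and 28.5% (Myc-JMJ14xTRBIP1-ZF) of them. At shared H3K4me3 segments those lists had 2.69%, 10.96% and 9.72%.

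**Figure D4:**
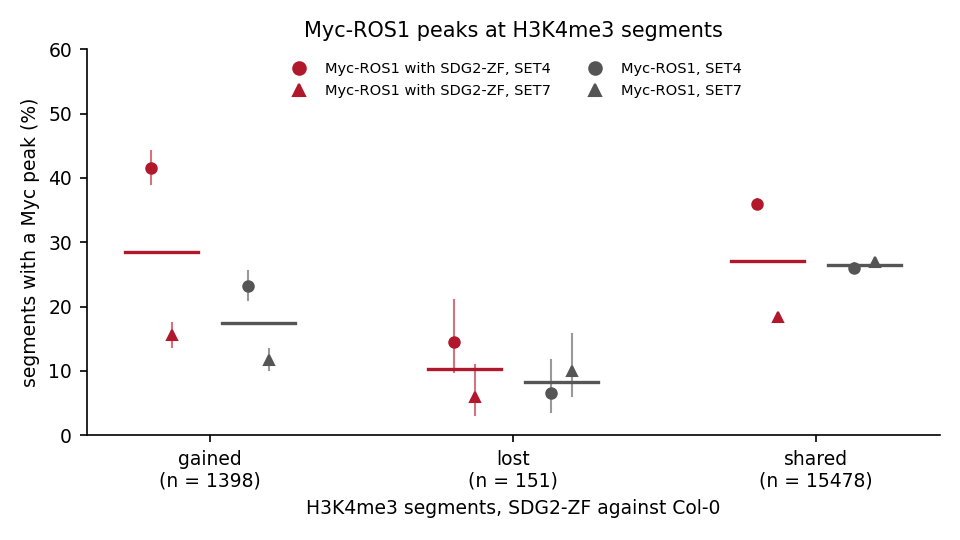
Percent of H3K4me3 segments of SET1 that are gained (1398), lost (151) or shared (15478) between SDG2-ZF and Col-0 and that hold a Myc peak, 1 point per library. Red is Myc-ROS1xSDG2-ZF and grey Myc-ROS1, circles are SET4 and triangles SET7, thin lines are Wilson 95% intervals and horizontal lines group means. At gained H3K4me3 segments each red point lies above the grey point of its set (41.6 and 23.2% in SET4, 15.5 and 11.7% in SET7), and at shared ones this holds for SET4 alone.

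Single H3K4me3 gains were counted in the same way. A Myc peak in SET4 was present with SDG2-ZF and absent without it at 279 of the 1398, and the reverse at 23. In SET7 the 2 counts were 105 and 51. At shared H3K4me3 segments they were 1967 and 435 in SET4 and 305 and 1632 in SET7. A peak in both Myc-ROS1xSDG2-ZF lists and neither Myc-ROS1 list lay at 52 H3K4me3-gained segments (3.72%), with 4 of the reverse (0.286%), against 84 (0.543%) and 93 (0.601%) at shared ones.

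The stronger H3K4me3 gains, the upper 2 of 4 classes, held Myc peaks more often than the lower 2 in every library. With the 1398 segments split into 4 classes of 349 or 350 by H3K4me3 fold, the strongest class, with a lowest fold of 2.21 to 5.10, had Myc peaks at 57.1% (SET4) and 21.7% (SET7) in Myc-ROS1xSDG2-ZF and at 32.9% and 17.1% in Myc-ROS1. In the weakest class, from 1.37 to 1.74, they were found at 30.7% and 11.5% in Myc-ROS1xSDG2-ZF and at 18.3% and 9.46% in Myc-ROS1. In all 4 classes the Myc-ROS1xSDG2-ZF value lay above the Myc-ROS1 value of its set, but between the lower 2 classes the share did not fall further in 3 of 4 libraries. The next-to-weakest class had 31.2% (SET4) and 10.6% (SET7) in Myc-ROS1xSDG2-ZF and 18.1% and 6.30% in Myc-ROS1. Over the H3K4me3 gains with a SET4 Myc-ROS1xSDG2-ZF peak, the Myc peak had a median width of 820 bp and the H3K4me3 peak of SDG2-ZF replicate 1 a median of 384 bp. At shared H3K4me3 segments these were 571 and 832 bp, and widths depend on depth and on the caller.

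The 12 gained segments with the highest fold, ordered by the lower of the 2 lists, mostly lay before genes. They are named as the strongest by that order, which is no test. The first, at chr3:9861628-9862533 with its midpoint 92 bp before AT3G26800, had a fold of 3.87 in SET4 and 4.28 in SET7, and the nearest Myc-ROS1 peak was 5044 bp away. It also had H3K4me3 peaks in 2 of 3 SDG2-ZF lists (2.99 and 2.24) and none in Col-0, and H3K14ac peaks in 2 of 2 SDG2-ZF and 0 of 2 Col-0 lists.

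The segment before CHX24, a cation/proton exchanger gene (chr5:14646585-14647004, 3.06 and 2.94), was the only one of the 12 in a gene-poor window. Segments lay 164 bp before AT2G36550 (chr2:15327106-15327523, 3.2 and 2.90), 808 bp before ZFP8, a zinc finger regulator of trichome formation (chr2:17506423-17506647, 2.91 and 2.90), and 655 bp before MIR393a, which gives a microRNA against auxin receptor transcripts (chr2:16651316-16651576, 3.06 and 2.78). A coding exon of AT4G14390 (chr4:8291733-8292089, 2.90 and 3.09), an exon of the long noncoding RNA AT2G07025 (chr2:7831075-7831450, 2.87 and 2.75), the region before AT4G03030 (chr4:1337609-1338186, 3.07 and 2.75) and an intergenic stretch (chr5:25336739-25337325, 3.34 and 2.72) were among them too. Of these 12, 10 had an H3K4me3 peak in at least 1 SDG2-ZF list, none had one in Col-0, and ZFP8 and MIR393a had none in either. Over all 304 gained segments, 84 (27.6%) had a peak in at least 1 SDG2-ZF list and none in Col-0, so these 12 do not stand for the class.

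H3K4me3 in 3 of 3 SDG2-ZF and 0 of 2 Col-0 lists marked 3 of the 12, against 47 of all 304 gained segments (15.5%). The intron segment of NSP1, a nitrile specifier gene of glucosinolate breakdown (chr3:5566208-5567257), had Myc folds of 4.32 in SET4 and 2.85 in SET7 and H3K4me3 folds of 2.42, 3.22 and 2.92 in SDG2-ZF. The segment 235 bp before ATECP31, which encodes a late embryogenesis abundant protein (chr3:7972653-7973631), had Myc folds of 2.81 and 2.90 and H3K4me3 folds of 1.99, 2.41 and 2.67. The first exon of EXO70C2, which encodes an exocyst subunit (chr5:4516631-4517065), had Myc folds of 4.13 and 2.72 and H3K4me3 folds of 2.69, 3.31 and 3.27. A Myc-ROS1 peak lay 55 bp from the EXO70C2 segment and 1172 bp from that of NSP1, and one lay 38 bp from the AT2G07025 segment.

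Among gained segments over an H3K4me3 gain, 5 further ones came next in order. VIM4 encodes a relative of VIM1, which binds methylated DNA and keeps CG methylation in place. Its first exon gained a Myc segment (chr1:24586552-24586879) with folds of 3.85 in SET4 and 2.68 in SET7, and the H3K4me3 folds there were 5.10, 6.69 and 5.46 in SDG2-ZF with no peak in Col-0. By the lowest fold this is the first of all 1398 H3K4me3 gains, and the nearest Myc-ROS1 peak was 15200 bp away. VIM4 has close relatives in the genome, and the reads were mapped with the default settings of Bowtie2, which place a read that fits several copies equally well at one of them by chance, so the copies are not fully separated.

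IAA14, a repressor of auxin responses, gained a segment 154 bp after its start (chr4:8349929-8350289) with Myc folds of 3.90 and 2.53 and H3K4me3 folds of 2.86, 4.06 and 3.93 in SDG2-ZF. The coding exon of AT1G77160 (chr1:28996064-28996790, Myc 3.41 and 2.62) and the 3′ ends of AT3G27490 (chr3:10177690-10178434, 3.04 and 2.54) and AT1G69150 (chr1:25993357-25993875, 2.44 and 2.50) completed the group. H2A.Z peaks lay over each of these 8 segments in 2 or 3 of 3 SDG2-ZF lists and in 1 or 2 of 2 Col-0 lists. H2A.Z was common at H3K4me3 gains in both groups. Single lists had it at 45.4 to 75.1% of all 1398 in SDG2-ZF and at 62.2% and 51.8% in Col-0. Of the 47 gained segments over an H3K4me3 gain, 24 lay at a coding gene start, 18 elsewhere in a coding gene and 3 between genes, and their median length was 353 bp against 245 bp for the other 257. Their median of the lower Myc fold was 2.15, the same as that of the others.

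Of all 179 lost segments, 79 (44.1%) had no H3K4me3 peak in any list. The 8 lost segments with the highest fold were weaker than the leading gains and mostly lay outside H3K4me3 peaks. The first was 436 bp before the pseudogene AT3G52055 (chr3:19310676-19310920), with Myc-ROS1 folds of 2.67 in SET4 and 2.70 in SET7, and it had H3K4me3 in all 5 lists (5.26 to 6.8 in SDG2-ZF, 7.93 and 8.48 in Col-0). The 3′ end of LBD37, a repressor in the nitrogen response (chr5:26904147-26904303, 2.67 and 3.41), had H3K4me3 in 2 of 3 SDG2-ZF and 2 of 2 Col-0 lists. The other 6, before AT4G27740 (3.2 and 2.64), AT1G01100 (2.59 and 3.23), RLK (AT5G67280, 2.55 and 2.80) and TBL25 (2.90 and 2.54) and between genes on chromosomes 1 (chr1:29511221-29511459, 2.61 and 2.70) and 2 (chr2:18486392-18486648, 2.73 and 2.56), had no H3K4me3, H3K14ac or H2A.Z peak in any list.

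**Figure D5:**
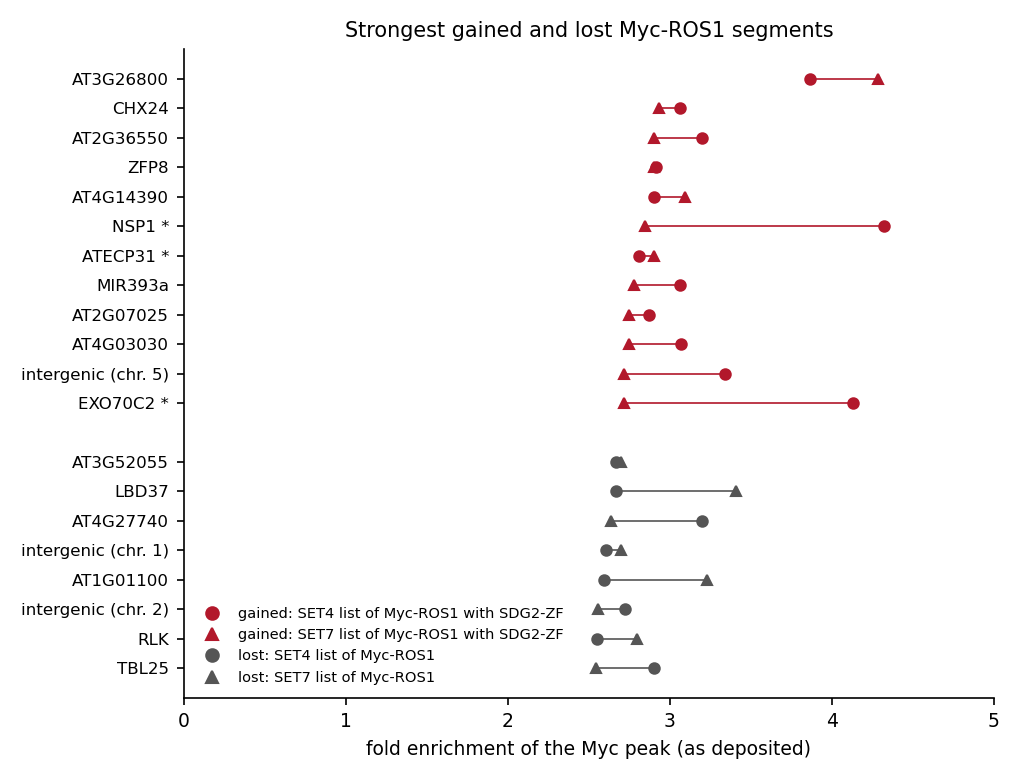
Fold enrichment of the Myc peak, as deposited, at the 12 strongest gained segments (red, Myc-ROS1xSDG2-ZF lists) and the 8 strongest lost segments (grey, Myc-ROS1 lists), circles for SET4 and triangles for SET7. A star marks H3K4me3 peaks in 3 of 3 SDG2-ZF and 0 of 2 Col-0 lists, which holds for NSP1, ATECP31 and EXO70C2. Gained folds run up to 4.32 and lost folds up to 3.41.

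FWA, the gene for which the zinc finger was designed (chr4:13038360-13042464, plus strand), held no gained segment. A Myc peak lay over its start in the SET4 list of Myc-ROS1xSDG2-ZF (chr4:13038223-13038852, fold 1.99) and none was listed in SET7 or in either Myc-ROS1 list. From signal tracks the paper reports strong ROS1 enrichment in SDG2-ZF plants at FWA and at other sites bound by the zinc finger. Signal tracks were not used here, and a peak that is not listed does not show that signal is absent. H3K4me3 peaks lay at this start in 3 of 3 SDG2-ZF lists (3.54, 5.69 and 3.76) and in 0 of 2 Col-0 lists, and the segment was 17th of the 1398 gains by its lowest fold. Both lists of Myc-JMJ14xTRBIP1-ZF, another tagged protein with another fusion to the zinc finger, had a Myc peak there at 4.44 and 4.37. According to the paper, TRBIP1-ZF was introduced into the fwa epiallele, in which FWA is unmethylated. The state of FWA may therefore differ between those plants and the ones compared here. The flanking gene SLK1 had no Myc peak in the 4 lists, and MSH3 had one in the SET7 list of Myc-ROS1 alone (2.56).

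At the genes used in the constructs, reads from the transgene and from the gene itself cannot be told apart. ROS1 (AT2G36490) was covered by shared Myc segments, with highest folds of 8.29 and 3.16 in Myc-ROS1xSDG2-ZF and 5.89 and 3.83 in Myc-ROS1. Inside SDG2, at chr4:8658395-8658781, the SET7 list of Myc-ROS1xSDG2-ZF had a Myc peak of 1.82-fold and the other 3 lists had none, while H3K4me3 peaks lay there in 3 of 3 SDG2-ZF and 0 of 2 Col-0 lists. UBQ10 had Myc peaks over the gene body in both SET7 lists (1.75 with SDG2-ZF, 2.43 without).

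Gained and lost segments were rare at genes of the pathways concerned, as they were over all genes. Over all 37899 nuclear genes, 0.921% had a gained and 0.557% a lost segment between 1 kb upstream and the gene end, and of 83 genes in 10 lists 2 had a gained and 1 a lost one. The gained ones lay at VIM4, 1 of 13 DNA methylation maintenance genes, and at NRPD1, the largest subunit of RNA polymerase IV and 1 of 16 genes of RNA-directed DNA methylation. The NRPD1 segment lay 126 bp after the start (chr1:23362244-23362681), with folds of 3.14 and 2.32 and an H3K4me3 peak in 1 of 3 SDG2-ZF lists (2.34). The lost segment lay in HTA9, an H2A.Z gene and 1 of 6 genes of H2A.Z deposition (chr1:19645344-19645549, 2.19 and 1.83 in Myc-ROS1), with H3K4me3 in all 5 lists. None of the 11 DNA demethylation, 10 H3K4 methylation, 9 H3K4 demethylation, 4 ROS1-regulated, 5 silenced or imprinted, 3 flowering and 6 housekeeping genes had a gained or lost segment. Given the shares over all genes, lists of this size are too small for such a count to tell anything about a pathway. Shared segments lay at the flowering repressor FLC (5.39 and 2.56 in Myc-ROS1xSDG2-ZF, 3.91 and 2.75 in Myc-ROS1) and at RLP43 (3.06 and 1.9, against 2.37 and 3.04). They also lay at ROS1, IDM3, VIM1, ATX3, RBL, LDL2, HTA8, SOC1 and the housekeeping gene IPP2. FLC had an H3K4me3 peak in every SDG2-ZF list (2.45, 3.93 and 3.23) and in no Col-0 list.

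H3K14ac, an acetylation of active genes, and the histone variant H2A.Z had smaller mean differences at gained segments than H3K4me3. H3K14ac peaks lay over 34.5% and 32.2% of gained segments in SDG2-ZF and over 33.9% and 35.9% in Col-0, a difference of -1.48 points (exact p = 0.667, adjusted p = 0.867), whose sign turned at −log10 q of at least 5 and without any 1 Myc library. At lost segments it was 46.4% in both SDG2-ZF libraries and 43.6% and 44.1% in Col-0, 2.51 points apart (exact p = 0.33, the smallest possible, adjusted p = 0.619). At shared segments the shares were 57.8% and 57.4% in SDG2-ZF and 53.6% and 55.2% in Col-0.

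H2A.Z peaks lay over 57.2%, 47.7% (both SET4) and 60.5% (SET5) of gained segments in SDG2-ZF and over 61.8% (SET4) and 45.7% (SET5) in Col-0, 1.37 points apart (exact p = 0.8, adjusted p = 0.945), with -9.38 points within SET4 and 14.8 within SET5. At lost segments the shares were 30.2%, 13.97% and 30.7% in SDG2-ZF and 41.3% and 24.0% in Col-0, a difference of -7.73 points (exact p = 0.6, adjusted p = 0.867), with -19.3 points within SET4 and 6.70 within SET5. The H2A.Z lists held 12217 to 29052 peaks. Once each was cut to its 12217 strongest peaks, the difference was 5.70 points at gained segments, where all 3 SDG2-ZF libraries then stood above both Col-0 libraries (exact p = 0.1, the smallest possible), and -1.04 points at lost segments (exact p = 0.8). Set beside the 9.18 points of H3K4me3 under the same setting, the H2A.Z value has the same sign, and the difference between the marks was not tested. In each of the 5 libraries H2A.Z lay over a larger share of gained than of lost segments, and at shared segments the Col-0 shares were 66.8% and 47.2%.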

How the data were processed

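Peak lists of anti-Myc, H3K4me3, H3K14ac and H2A.Z ChIP-seq were used as deposited. The submitters' processing notes name Trim Galore 0.6.5 for trimming, Bowtie2 2.1.0 for mapping to TAIR10, SAMtools 1.9 for duplicate removal and MACS2 2.2.1 for peaks. In the deposited lists the authors give each peak's fold enrichment, a ratio as the caller wrote it, and the −log10 of p and q. The Myc-ROS1, Myc-ROS1xSDG2-ZF, H3K4me3 and H2A.Z lists reach down to a −log10 q of about 2. The H3K14ac, Myc-JMJ14 and Myc-JMJ14xTRBIP1-ZF lists and that labelled untagged Col-0 reach down to about 1.3. Numbers of peaks and shares are therefore not at the same threshold across these lists. The study names no control library for calling.

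Organelle peaks were dropped and repeated intervals counted once. Genes are those of TAIR10.1. Of 50 lists 22 were used here, and the other samples were not analysed here. Shares of segments with a peak were compared by exact two-sided permutation of libraries, 13 tests in all, with Python 3.11.15 and numpy 2.4.6. The segment calls and the test were checked on simulated lists. Named genes are FWA, its neighbours, construct genes, list members with a gained or lost segment, and the 12 gained, 8 lost and 8 H3K4me3-overlapping gained segments of highest lower fold. Members and lists were chosen with earlier results of these data known. The paper gives read numbers per library, which were not used here, so no value is adjusted for depth. By those numbers the SET7 Myc-ROS1xSDG2-ZF library was the deepest of the Myc-ROS1 libraries, yet its list was the shortest. The number of peaks per list is therefore no measure of depth. Alternatives were other thresholds of q, length and overlap, equal list sizes, removal of gene-poor windows or of segments under peaks of untagged Col-0, single libraries left out, sets and a replicate block.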

Additional observations from a re-analysis of the deposited data

Results flagged for a closer look

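Differences of opposite sign between sets drew attention. None of these was tested, since each set holds 1 or 2 libraries of a group. Gained minus lost Myc-ROS1 segments came to 5093 within SET4 and -2479 within SET7. At shared H3K4me3 segments the Myc share with SDG2-ZF minus without was 9.90 points within SET4 and -8.57 within SET7, and at H3K4me3-lost segments it was 7.95 and -3.97 points. In both cases the sign is that of the difference in list size, with 14212 peaks in Myc-ROS1xSDG2-ZF against 9724 in Myc-ROS1 of SET4, and 5580 against 7924 in SET7. An alternative with equal numbers of peaks was run, and the part of list size was not tested.

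For H2A.Z, SDG2-ZF minus Col-0 was -9.38 points at gained and -19.3 points at lost segments within SET4, and 14.8 and 6.70 points within SET5. The H2A.Z lists of SDG2-ZF held 18658 and 12217 peaks against 28280 in Col-0 of SET4, and 29052 against 21273 in SET5.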

How the results depend on the processing

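The excess of SDG2-ZF over Col-0 in H3K4me3 kept its sign at gained segments (6.36 to 38.2 points), at shared segments (1.49 to 7.13) and for gained minus lost segments (3.94 to 39.9) under each of the 19 alternatives run for it, and so did Myc peaks at H3K4me3-gained minus shared segments (4.21 to 16.6). Not all of the 19 could change these values. A −log10 q of at least 2 removed no peak from the Myc-ROS1, Myc-ROS1xSDG2-ZF or H3K4me3 lists. The untagged Col-0 filter removed no gained or lost Myc segment, and the replicate block reused the main segments. H3K4me3 at gained minus shared segments turned only for segments called within SET4 (-0.77 points), an alternative chosen after seeing the data. H3K4me3 at lost segments turned at 300 bp (-1.79). At 300 bp 107 gained and 28 lost segments were left. Leaving out 1 library, which loosens the rule, gave 549 to 5040 gained and 296 to 1546 lost segments. Within SET4 there were 6176 and 1083, and within SET7 910 and 3389. Myc peaks at shared H3K4me3 segments turned with equal numbers of peaks (-0.39) and within SET7 (-8.57), and those at H3K4me3-lost segments within SET7 (-3.97). With single libraries left out, Myc peaks at H3K4me3-gained segments ran from -1.93 to 24.1 points, at H3K4me3-lost segments from -2.32 to 6.29 and at shared H3K4me3 segments from -8.15 to 9.48. H3K14ac at gained segments turned at −log10 q of at least 5 (2.94) and ran from -2.63 to 1.56 with libraries left out. H2A.Z at gained segments turned within SET4 (-9.38) and ran from -8.78 to 9.43, and at lost segments it turned within SET5 (6.70) and ran from -16.4 to 0.93. The cause was not tested.

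With equal numbers of peaks per list, H2A.Z differed by 5.70 points at gained and -1.04 at lost segments.

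With the replicate block, 238 segments were gained and 131 lost. The shares were not taken at these segments. For them, libraries were paired by replicate number at the segments of the main call, which left out SDG2-ZF replicate 3. The differences above kept their sign, with 21.9 points for H3K4me3 and 5.10 for H2A.Z at the 304 gained segments. All H3K4me3 libraries were of SET1, so for that mark the pairing is no block. The labels put the same number of both Myc groups in the same set, and the SET4 minus SET7 differences of peak presence over 16711 stretches correlated at 0.38 between the groups. Of 27 named segments, 17 were still called at 300 bp, 25 with equal numbers of peaks and at least 24 with any 1 Myc library left out. Leaving out a library loosens the rule, so staying called there is largely set by the rule and shows little about stability. No design here could pass 0.05, and the number of peaks per list limits the precision.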

Other observations

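Myc peaks of other tagged proteins were listed at some of the same places. The 2 Myc-JMJ14xTRBIP1-ZF lists had a peak at 8.55% and 5.59% of gained segments, at 6.70% and 7.82% of lost segments and at 23.1% and 25.6% of shared segments. The Myc-JMJ14 list of SET6 had one at 2.63%, 1.12% and 6.30%. These lists held 5678, 3814 and 1572 peaks and reached down to a −log10 q of about 1.3, lower than the Myc-ROS1 lists.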
